A study of Homo sapiens with 16 samples.

Results

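Aminoacyl-tRNA synthetases are the enzymes that join each amino acid to its transfer RNA, and their transcripts were followed in the human line MDA-MB-231, derived from triple-negative breast cancer, after treatment with afatinib, paclitaxel or both. The family was chosen by gene symbol: 36 symbols, 20 of cytosolic and 16 of mitochondrial enzymes, were taken from a count table of 37864 rows, and the counts of the 39 identifiers behind them were summed by symbol. No measured value chose a single symbol, but the family as a whole was selected on earlier results of these same treatment comparisons, so the counts of changed members below describe these libraries and are no independent evidence. The groups were cells given the solvent DMSO, afatinib, paclitaxel, or afatinib with paclitaxel (the combination), with 4 libraries each and 16 in all. All groups shared the same unmodified line, grown in DMEM with fetal bovine serum and penicillin/streptomycin. Afatinib is a covalent inhibitor of EGFR, ERBB2 and ERBB4, and paclitaxel binds tubulin and keeps microtubules from coming apart. The sources used here gave neither dose nor length of exposure, and the treatment protocol also names doxorubicin, which no library here carries as a label.

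Synthetases form 2 structural classes with different folds of the catalytic domain. Most amino acids have one gene for the cytosolic enzyme and another, marked by a 2 at the end of the symbol, for the mitochondrial enzyme, while GARS and KARS each serve both compartments. In the cytosol, 8 of the synthetases assemble with scaffold proteins into the multisynthetase complex, and the others work free of it. Uncharged transfer RNA activates the kinase GCN2, which raises translation of the transcription factor ATF4, and many cytosolic synthetase genes are known targets of ATF4 through the C/EBP-ATF response element.

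The response element is shown first because its core was found mostly in cytosolic members. RefSeq promoters on GRCh38.p14, from 250 bases before to 50 after a transcript start, were matched to 30 of the 36 symbols. The core of the element, TGATGNAA, was searched on both strands, where N is any base. It occurred in a promoter of 7 of 16 cytosolic members (43.75%) and of 1 of 14 mitochondrial members (7.14%), beside 4.46% of all 27303 symbols with a promoter. The matches follow with 10 bases on either side, 5′ to 3′ on the gene's own strand, with the matching letters in capitals.
AARS: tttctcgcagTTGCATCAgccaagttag
CARS: ggggcggcggTTGCATCAgattctagga
GARS: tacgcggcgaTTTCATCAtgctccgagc
IARS: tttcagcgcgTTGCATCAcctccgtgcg
MARS: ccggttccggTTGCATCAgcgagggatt
NARS: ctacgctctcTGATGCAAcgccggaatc
TARS: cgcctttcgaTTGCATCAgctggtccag
YARS2: tccacactgcTGATGGAAaaattaagtt
Of the 7 cytosolic matches, 6 read TTGCATCA or, on the other strand, TGATGCAA, and GARS carried TTTCATCA. In all but AARS of these 7, the match lay between 33 bases before (GARS) and 22 bases after (NARS) a RefSeq start. The match in IARS began 13 bases before the start and that in AARS at position −187 counted from the start. The windows lie on chromosome 16 (AARS, chr16:70289676-70289703), 11 (CARS, chr11:3057408-3057435), 7 (GARS, chr7:30594835-30594862), 9 (IARS, chr9:92293693-92293720), 12 (MARS, chr12:57488054-57488081, and YARS2, chr12:32756077-32756104), 18 (NARS, chr18:57621805-57621832) and 5 (TARS, chr5:33440957-33440984). A match is a description of the letters and not a measured binding site.

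Around the element, the 250 bases before the start of IARS are shown because this gene had the smallest p with paclitaxel of all members (chr9:92293698-92293947, minus strand of GRCh38.p14). The match is in capitals, and an E-box (CACGTG) lies 186 bases before the start.
IARS: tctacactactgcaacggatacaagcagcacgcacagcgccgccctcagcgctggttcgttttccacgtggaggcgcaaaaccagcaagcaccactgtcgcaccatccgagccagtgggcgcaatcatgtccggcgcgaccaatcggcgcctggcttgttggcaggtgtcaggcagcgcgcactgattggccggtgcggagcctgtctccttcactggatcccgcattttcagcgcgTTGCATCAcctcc
The 250 bases before the start of LARS2, the member that rose with the smallest p in the combination, held none of the motifs searched (chr3:45388326-45388575, plus strand).
LARS2: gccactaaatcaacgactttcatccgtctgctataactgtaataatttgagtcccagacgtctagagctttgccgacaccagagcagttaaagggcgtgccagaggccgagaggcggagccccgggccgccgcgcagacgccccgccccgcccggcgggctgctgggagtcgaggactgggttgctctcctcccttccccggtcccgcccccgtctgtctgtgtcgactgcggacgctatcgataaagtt
A second motif was common to both classes. CCGGAAG, the core bound by ETS factors, was found on either strand in 9 of 16 cytosolic (56.25%) and 7 of 14 mitochondrial members (50%), beside 12.2% of all symbols. HARS and HARS2 lie head to head, and 84 bases separate their RefSeq starts (chr5:140691371-140691454, given on the plus strand). Both ETS matches of this pair lie in that shared stretch and are in capitals.
HARS and HARS2: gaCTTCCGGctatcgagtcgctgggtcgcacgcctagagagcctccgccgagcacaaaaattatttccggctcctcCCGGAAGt
The NRF1 motif was found in 3 of 16 cytosolic and 3 of 14 mitochondrial members (6.98% of all symbols). The E-box CACGTG was found in 1 of 16 and 3 of 14 (8.78%).

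The libraries held 28366004 to 48108577 counts each, and paclitaxel replicate 4 was the smallest. Markers of the line were present in every library (VIM 844 to 1213, CD44 850.0 to 2142, EGFR 420.2 to 1051 and AXL 1275 to 2091 CPM, the usual scaling of counts to library size), while ESR1 and CDH1 stayed at or under 0.491 CPM. Progesterone receptor PGR was detectable at 3.80 to 6.44 CPM. The 5 blood markers summed to at most 0.141 CPM (HBB and TYROBP matched no symbol), and the 4 fibroblast markers, mostly COL1A1, to 9.61 to 23.0 CPM with overlap of all groups. The 4 luminal breast markers summed to 13.2 to 15.3 CPM in DMSO and 14.1 to 15.8 CPM with paclitaxel, but 10.6 to 12.3 CPM with afatinib and 9.50 to 12.2 CPM in the combination, nearly all of it GATA3, while KRT19 stayed at or under 0.229 CPM. The 3 endothelial markers summed to 2.36 to 5.07 CPM (DMSO), 2.41 to 4.07 (paclitaxel), 1.64 to 2.71 (afatinib) and 1.56 to 2.17 (combination). The luminal sum, nearly a single gene, was thus lower with afatinib and with both drugs in every library. GATA3 had also been listed, with ESR1, PGR and CDH1, as a marker expected to be low in this line. The endothelial sum was lower than in DMSO in every combination library. The part of these markers in the results below was not tested. The labelled RNA concentration split every group: replicates 1 and 2 had 346 to 1291 ng/µl and replicates 3 and 4 had 118 to 330 ng/µl. This split is called the concentration set, entered the fit as a term, and is shown beside the results. Within a set the concentration also differed between treatments, and for replicates 1 and 2 the means were 1171 (DMSO), 1002 (afatinib), 388 (paclitaxel) and 623 ng/µl (combination). The part of concentration in the treatment results was not tested beyond the settings given in the closing paragraphs.

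Of the 36 members, 34 had enough counts to be tested, and 17991 rows of the table were tested in all. VARS and VARS2, the valine enzymes, had 0 to 6 and 0 to 1 counts per library on the identifiers used, which lie outside the primary assembly of GENCODE v29, and their expression is not analysed here. SARS2, the mitochondrial serine enzyme, was tested at only 0.873 to 2.09 CPM, and 57.0% of its exon bases also belong to other genes (AC011455.2 and MRPS12), so its level is uncertain. Whether reads were assigned by strand was not given in the sources used here. HARS and HARS2 overlap on opposite strands, over part of the 8.38% of HARS exon bases that other genes share, and 13.3% of the exon bases of MARS are covered by DDIT3 and ARHGAP9 on the other strand or by a microRNA, so these values carry some uncertainty. Gene positions are those of GENCODE v29 on GRCh38, whose ends can differ from the RefSeq starts above. For some members the deposited length differs from the exon bases there (HARS 8436 against 7853, FARS2 2351 against 4835). The counted exons of these may therefore differ from those used for the shares above. For SARS2 and MARS the lengths are equal. Changes are given as log2 fold changes ± SE from edgeR over 4 libraries per group, and a call is an adjusted p under 0.05 (Benjamini-Hochberg, over all tested rows). Nothing in the labels says that replicates came from separate cultures, so p-values measure the spread between these libraries.

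The levels per kilobase of exon in DMSO (RPKM, mean ± SD, n = 4) ran from 0.477 to 123. TARS, the threonine enzyme, stood at 123 ± 7.98 RPKM, above all others. In the next 8, neighbours in the order did not differ beyond their spread: FARSA at 76.3 ± 8.36, SARS at 75.9 ± 3.49, EPRS at 75.2 ± 7.59, KARS at 73.4 ± 9.29, GARS at 68.9 ± 5.00, QARS at 67.2 ± 14.7, AARS at 66.9 ± 3.67 and NARS at 61.7 ± 4.42 RPKM. EPRS is a single protein that charges glutamate and proline, and FARSA is the catalytic subunit of the phenylalanine enzyme. IARS2 (57.7 ± 2.36 RPKM) was the only mitochondrial member at that height, next to its cytosolic counterpart IARS (54.4 ± 2.48 RPKM), from which it did not separate. MARS (39.4 ± 4.28), DARS (37.5 ± 2.97) and RARS (34.4 ± 1.64 RPKM) followed. FARSB, the partner subunit of FARSA, stood at 28.2 ± 4.22 RPKM, in the range of WARS (26.9 ± 3.77) and YARS (24.5 ± 3.34). LARS lay below FARSB, at 21.9 ± 0.405 RPKM. The other mitochondrial members ran from 16.2 ± 0.325 RPKM for TARS2 and 14.5 ± 0.861 for LARS2 down to 3.40 ± 0.499 for PARS2 and 0.477 ± 0.0747 for SARS2. The cytosolic HARS, at 12.7 ± 0.596 RPKM, lay within that mitochondrial range. CARS, the cysteine enzyme, was the lowest tested cytosolic member at 2.21 ± 0.195 RPKM, under its mitochondrial counterpart CARS2 at 10.9 ± 1.35 RPKM. Gene lengths are those of the deposited table and sum all exons, so a long gene with unused exons reads low.

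**Figure D1:**
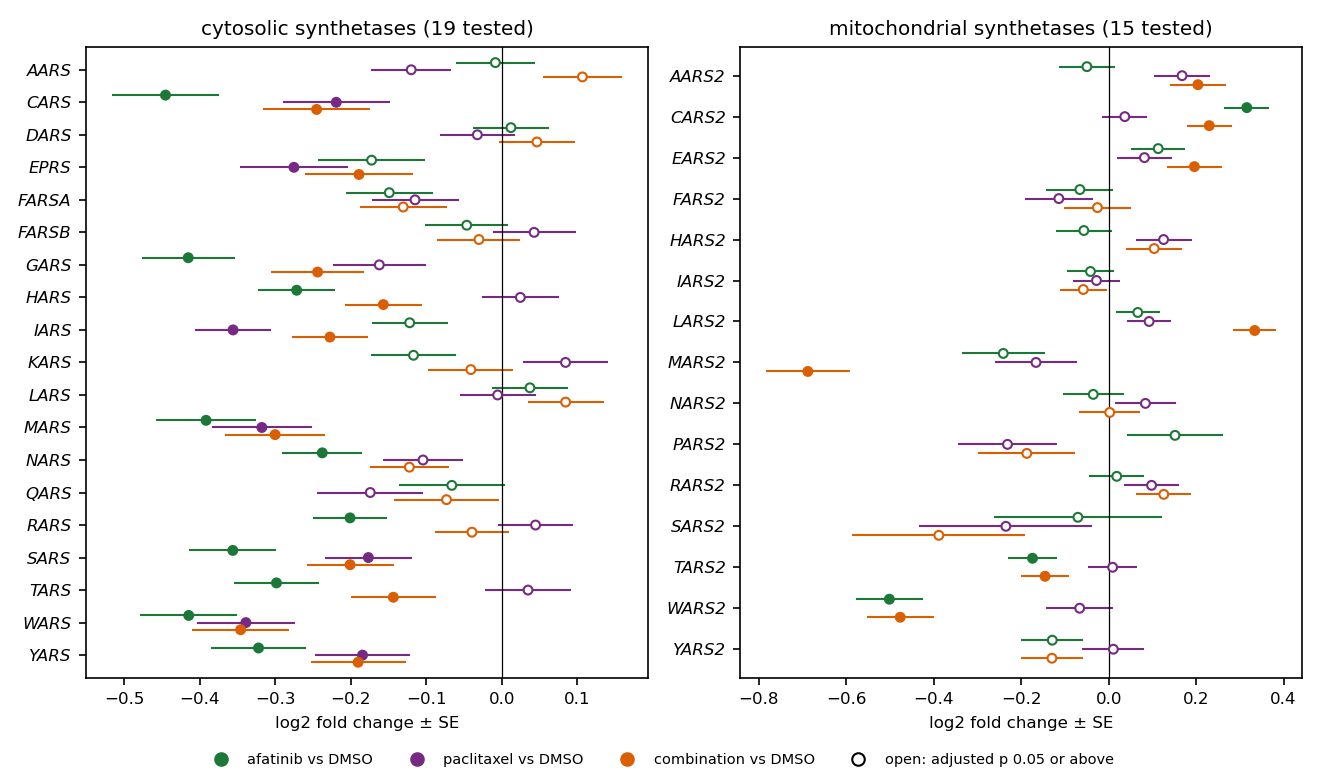
Log2 fold change against DMSO (x axis, with SE bars) of the 34 tested members (y axis) with afatinib, paclitaxel and the combination, cytosolic and mitochondrial members apart. Filled points passed an adjusted p under 0.05, and all filled cytosolic points lie left of 0.

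Afatinib lowered a broad set of cytosolic synthetases. Of 19 tested cytosolic members 10 fell and 0 rose, and of 15 mitochondrial members 2 fell and 1 rose. Across all tested rows 10.1% fell and 9.00% rose with afatinib, so the mitochondrial counts were near those shares. The median change was −0.20 in the cytosolic and −0.050 in the mitochondrial members, beside −0.0034 over all rows, and 17 of 19 cytosolic members were below 0. No cytosolic member rose in any comparison with DMSO, by edgeR, by DESeq2 or at an unadjusted p under 0.05 in edgeR (0 in each). The falls covered enzymes for glycine (GARS), tryptophan (WARS), cysteine (CARS), serine (SARS), methionine (MARS), tyrosine (YARS), threonine (TARS), histidine (HARS), asparagine (NARS) and arginine (RARS). In bulk RNA, fewer cells with a transcript and less of it per cell cannot be told apart.

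GARS (ENSG00000106105, chromosome 7, 30594681 to 30634033, plus strand), which makes both the cytosolic and the mitochondrial glycine enzyme, read 314, 289, 277 and 265 CPM in DMSO replicates 1 to 4, 237, 212, 204 and 205 CPM after afatinib, 253, 263, 271 and 234 CPM after paclitaxel and 233, 231.001, 248 and 253 CPM after both. Every afatinib library lay below every DMSO library, and the level fell by 25.02% (−0.42 ± 0.062, adjusted p = 3.68e-05, −0.42 and −0.41 within the sets). The combination also lay below DMSO without overlap (−0.24 ± 0.062, adjusted p = 0.00276), and paclitaxel overlapped DMSO (−0.16 ± 0.062, adjusted p = 0.0645).

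CARS (ENSG00000110619, chromosome 11, 3000922 to 3057613, minus strand) read 21.1, 20.04, 23.3 and 24.3 CPM in DMSO replicates 1 to 4, 16.0, 14.4, 16.5 and 18.3 CPM after afatinib, 17.2, 19.99, 19.6 and 19.1 CPM after paclitaxel and 17.8, 15.9, 20.3 and 21.1 CPM after both. Every afatinib library lay below every DMSO library and the change was −0.45 ± 0.071 (adjusted p = 8.57e-05, −0.43 and −0.46 within the sets). SARS (ENSG00000031698, chromosome 1, 109213918 to 109238169, plus strand), the serine enzyme, read 308, 292, 276 and 288 CPM in DMSO replicates 1 to 4, 251, 222, 214 and 223 CPM after afatinib, 258, 266, 265 and 241 CPM after paclitaxel and 249, 238, 260.2 and 265 CPM after both, and all 3 treatments lay below DMSO in every library. Its change was −0.36 ± 0.058 with afatinib (adjusted p = 9.99e-05, −0.34 and −0.37 within the sets), −0.18 ± 0.058 with paclitaxel and −0.20 ± 0.058 in the combination.

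WARS (ENSG00000140105, chromosome 14, 100333788 to 100376805, minus strand), the tryptophan enzyme and a known interferon-inducible gene, read 192, 190.1, 161 and 143 CPM in DMSO replicates 1 to 4, 148, 133, 117 and 115 CPM after afatinib, 143, 144, 137 and 115 CPM after paclitaxel and 137, 134, 135 and 129 CPM after both. Replicates 3 and 4 were lower than replicates 1 and 2 in DMSO and in both single treatments, so both single treatments overlapped DMSO over all libraries and lay below it within each set, while the combination lay below DMSO throughout. It fell in all 3 treatments (−0.41 ± 0.065, −0.34 ± 0.065 and −0.35 ± 0.065, adjusted p = 6.25e-05, 0.000428 and 0.000127). Within the sets the combination stood at −0.49 and −0.19.

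TARS (ENSG00000113407, chromosome 5, 33440696 to 33469539, plus strand) read 756, 718, 676 and 653 CPM in DMSO replicates 1 to 4, 623, 576, 538 and 542 CPM after afatinib, 734, 746, 719 and 672 CPM after paclitaxel and 636, 603, 647 and 647 CPM after both. Afatinib lay below DMSO in all libraries (−0.30 ± 0.057, adjusted p = 0.000544, −0.29 and −0.30 within the sets), while paclitaxel overlapped it (0.035 ± 0.057, adjusted p = 0.725). HARS (ENSG00000170445, chromosome 5, 140673904 to 140691862, minus strand), the histidine enzyme, had the same order and read 108, 114, 103 and 104 CPM in DMSO replicates 1 to 4, 97.7, 87.3, 86.7 and 84.1 CPM after afatinib, 108, 111, 111 and 108 CPM after paclitaxel and 102, 96.6, 92.4 and 94.7 CPM after both. It fell with afatinib (−0.27 ± 0.051, adjusted p = 0.000500, −0.25 and −0.28 within the sets) and stood at 0.025 ± 0.051 with paclitaxel (adjusted p = 0.790). The other falls with afatinib were in YARS (−0.32 ± 0.063), NARS (−0.24 ± 0.053) and RARS (−0.20 ± 0.050), with adjusted p = 0.000729, 0.00230 and 0.00541.

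Outside the cytosol, afatinib lowered WARS2 and TARS2, the mitochondrial tryptophan and threonine enzymes, and raised CARS2, the mitochondrial cysteine enzyme. WARS2 (ENSG00000116874, chromosome 1, 119031216 to 119140671, minus strand) read 21.3, 20.1, 17.7 and 15.5 CPM in DMSO replicates 1 to 4, 15.4, 14.4, 11.7 and 11.3 CPM after afatinib, 20.5, 18.7, 16.6 and 15.4 CPM after paclitaxel and 15.1, 12.8, 11.99 and 13.6 CPM after both, and afatinib and the combination each lay below DMSO within and across the sets (−0.50 ± 0.077 and −0.48 ± 0.077, adjusted p = 5.03e-05 and 2.00e-05). Within the sets WARS2 stood at −0.46 and −0.54 with afatinib and at −0.57 and −0.38 in the combination. CARS2 (ENSG00000134905, chromosome 13, 110641412 to 110713603, minus strand) read 125, 127, 98.7 and 105 CPM in DMSO replicates 1 to 4, 156, 152, 128 and 129.6 CPM after afatinib, 127, 119, 105 and 114 CPM after paclitaxel and 145, 151, 122 and 117 CPM after both. It rose by 0.32 ± 0.051 with afatinib (adjusted p = 0.000101, 0.30 and 0.33 within the sets) and by 0.23 ± 0.051 in the combination (adjusted p = 0.000854), where it overlapped DMSO over both sets and not within either, and stood at 0.037 ± 0.051 with paclitaxel. The cytosolic and the mitochondrial cysteine enzyme thus moved in opposite directions with afatinib. TARS2 changed by −0.17 ± 0.056 with afatinib (adjusted p = 0.0292), a call lost without DMSO replicate 1 or 2 or afatinib replicate 2, 3 or 4 (adjusted p = 0.0628 to 0.115). The groups of all 13 called members did not overlap within either set, at 2 libraries against 2. Members that were not called separated in this way too. In both sets 13 of 19 cytosolic members lay below DMSO, where 10 were called. The share of all rows was not counted, so the separation adds no support to the calls. With no concentration term only GARS, CARS and SARS were called. The other 12 calls held without any 1 library. With the replicate number as a block FARSA (−0.15, adjusted p = 0.0427) and MARS2 (−0.24, 0.00616) were called in addition.

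**Figure D2:**
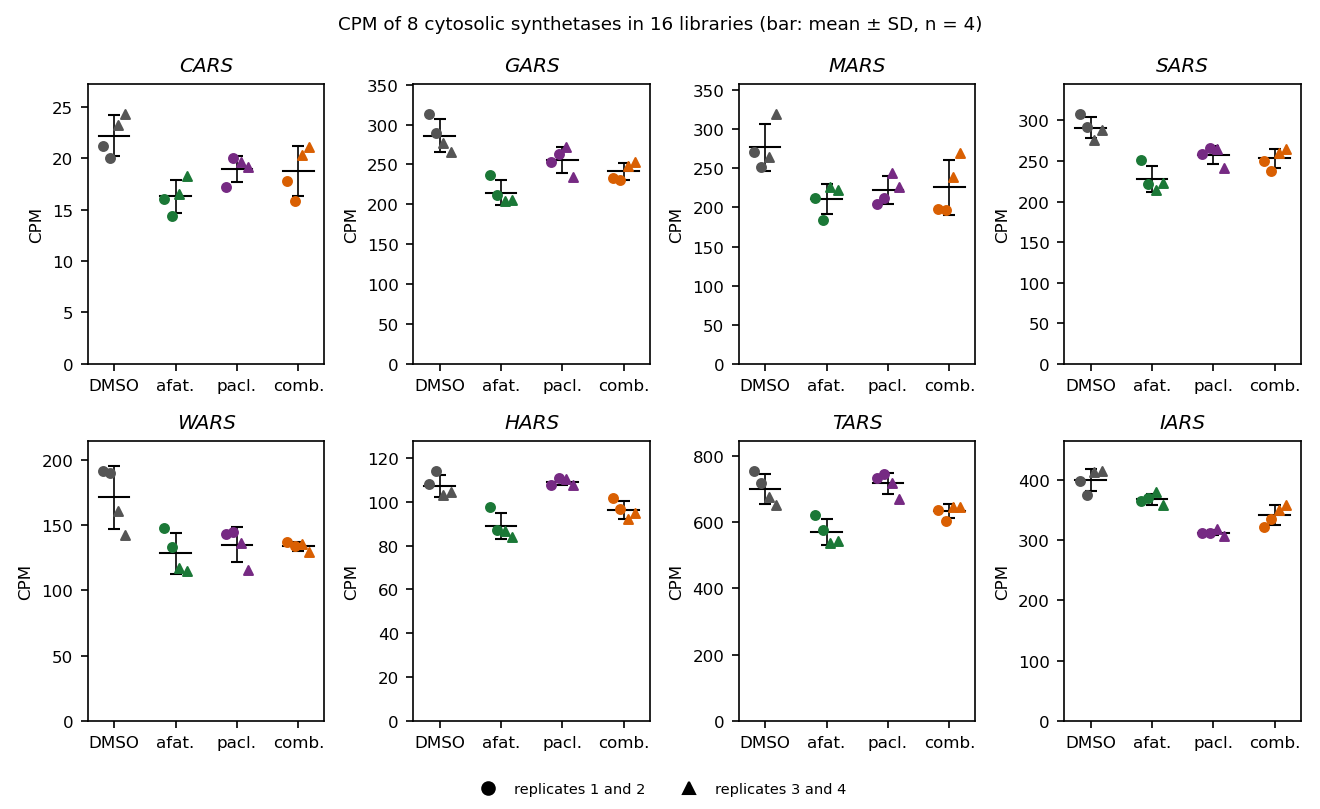
CPM (y axis, linear from 0) of 8 cytosolic synthetases in the 16 libraries by treatment (x axis), circles for replicates 1 and 2, triangles for replicates 3 and 4, and bars for mean ± SD (n = 4). GARS runs from 265 to 314 CPM in DMSO and from 204 to 237 CPM after afatinib.

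Paclitaxel lowered 7 members, all of the cytosolic class. Of 19 cytosolic members 7 fell and 0 rose, and of 15 mitochondrial members none was called by edgeR or DESeq2. At an unadjusted p under 0.05 in edgeR there were PARS2 (−0.23 ± 0.11) and AARS2 (0.17 ± 0.064). AARS2 was called without DMSO replicate 2 or paclitaxel replicate 3 (adjusted p = 0.0335 and 0.0286) and with the replicate number as a block (0.0417), and PARS2 without DMSO replicate 1 (0.0358). Across all rows 11.9% fell and 8.65% rose. The cytosolic median was −0.12 and the mitochondrial 0.011, beside −0.00087 over all rows. IARS (ENSG00000196305, chromosome 9, 92210207 to 92293756, minus strand), the isoleucine enzyme of the multisynthetase complex, read 398, 376, 413 and 415 CPM in DMSO replicates 1 to 4, 365, 369, 379 and 358 CPM after afatinib, 312, 312, 319 and 307 CPM after paclitaxel and 323, 336, 351 and 359 CPM after both. All paclitaxel values lay below those of every other group (−0.36 ± 0.050, adjusted p = 1.16e-05, −0.30 and −0.40 within the sets), and its change with afatinib was −0.12 ± 0.050 (adjusted p = 0.0910).

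MARS (ENSG00000166986, chromosome 12, 57475445 to 57517569, plus strand), the methionine enzyme of the complex, read 271, 251, 264 and 320.0 CPM in DMSO replicates 1 to 4, 212, 183, 226 and 223 CPM after afatinib, 205, 212, 245 and 226 CPM after paclitaxel and 198, 197, 239 and 269.6 CPM after both. It fell in all 3 treatments (−0.39 ± 0.066, −0.32 ± 0.066 and −0.30 ± 0.066, adjusted p = 0.000149, 0.00101 and 0.000740), with overlap in the combination through its replicate 4. Within the sets the combination stood at −0.40 and −0.20. DDIT3, whose exons overlap those of MARS on the other strand, moved the other way (0.52 ± 0.11, 0.72 ± 0.11 and 0.92 ± 0.11 in the same order, adjusted p = 0.00266, 8.57e-05 and 8.75e-07). EPRS changed with paclitaxel by −0.28 ± 0.071 (adjusted p = 0.00672). The falls of CARS (−0.22 ± 0.071, adjusted p = 0.0289), SARS (−0.18 ± 0.058, 0.0303) and YARS (−0.18 ± 0.063, 0.0387) rested on single libraries. CARS was lost without DMSO replicate 1 or 4 or paclitaxel replicate 1, 3 or 4 (adjusted p = 0.0687 to 0.0962). SARS was lost without DMSO replicate 1, 2 or 4 or paclitaxel replicate 1 or 4 (0.0512 to 0.110). YARS was lost without DMSO replicate 1, 2 or 3, paclitaxel replicate 1 or 4 or combination replicate 1 (0.0504 to 0.184). Without paclitaxel replicate 1 or 4 the count was 4. IARS, WARS, MARS and EPRS held without any 1 library. GARS was gained without DMSO replicate 4, paclitaxel replicate 3 or combination replicate 4 (0.0289 to 0.0488) and QARS without DMSO replicate 3 or combination replicate 4 (0.00940 and 0.0390). With the replicate number as a block 10 members were called, with GARS (0.0391), QARS (0.0393) and AARS2 added.

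In the combination 10 of 19 cytosolic members fell and 0 rose, and of 15 mitochondrial members 3 fell and 4 rose. Across all rows 19.5% fell and 18.5% rose, so the mitochondrial counts were near those shares. The cytosolic median was −0.14, with −0.23 in replicates 1 and 2 and −0.037 in replicates 3 and 4, and the mitochondrial median was −0.026, beside −0.0047 over all rows. The fallen cytosolic members were WARS, MARS, IARS, GARS, SARS, CARS, HARS, YARS, EPRS and TARS, between −0.35 and −0.14.

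MARS2 (ENSG00000247626, chromosome 2, 197705369 to 197708387, plus strand), the mitochondrial methionine enzyme, had the largest fall of the family. It read 23.1, 28.3, 26.6 and 26.7 CPM in DMSO replicates 1 to 4, 18.4, 24.1, 22.6 and 23.6 CPM after afatinib, 18.5, 23.4, 27.0 and 24.9 CPM after paclitaxel and 12.9, 15.8, 17.6 and 19.1 CPM after both. The combination lay below DMSO in every library, and the level fell by 37.9% (−0.69 ± 0.096, adjusted p = 4.13e-06, −0.84 and −0.53 within the sets), while its changes with afatinib (−0.24 ± 0.094, adjusted p = 0.0766) and paclitaxel (−0.17 ± 0.095, adjusted p = 0.235) did not pass. With the replicate number as a block its change with afatinib passed (−0.24, adjusted p = 0.00616).

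LARS2 (ENSG00000011376, chromosome 3, 45388506 to 45549421, plus strand), the mitochondrial leucine enzyme, went the other way and read 75.1, 74.3, 79.2 and 84.4 CPM in DMSO replicates 1 to 4, 77.6, 77.0, 88.5 and 84.9 CPM after afatinib, 77.4, 79.0, 91.9 and 85.7 CPM after paclitaxel and 90.0, 92.7, 102 and 110.5 CPM after both. Its combination libraries lay above every DMSO library, a rise of 26.1% (0.33 ± 0.050, adjusted p = 7.17e-06, 0.29 and 0.38 within the sets), beside 0.067 ± 0.050 with afatinib and 0.092 ± 0.050 with paclitaxel (adjusted p = 0.385 and 0.207). AARS2 (ENSG00000124608, chromosome 6, 44299654 to 44313326, minus strand), the mitochondrial alanine enzyme, read 19.0, 21.2, 23.2 and 22.6 CPM in DMSO replicates 1 to 4, 18.1, 19.9, 23.0 and 22.2 CPM after afatinib, 22.6, 22.2, 24.0 and 27.99 CPM after paclitaxel and 22.1, 21.8, 27.9 and 27.8 CPM after both. It rose within each set and overlapped over both (0.20 ± 0.064, adjusted p = 0.0133, 0.13 and 0.28 within the sets). EARS2, the mitochondrial glutamate enzyme, rose by 0.20 ± 0.062 (adjusted p = 0.0145).

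Several calls in the combination rested on 1 library. Without combination replicate 2 the count of called members was 11, with CARS, EPRS, HARS, SARS, TARS, YARS and TARS2 lost (adjusted p = 0.0603, 0.245, 0.0753, 0.0598, 0.250, 0.104 and 0.185) and RARS2, the mitochondrial arginine enzyme, gained (0.18, adjusted p = 0.0375). HARS was also lost without DMSO replicate 2 (0.0841), and EARS2 without combination replicate 3 (0.0663). EPRS was lost in addition without DMSO replicate 1 or 2, afatinib replicate 2 or combination replicate 1 (0.0544 to 0.179), and YARS without DMSO replicate 1, 2 or 3 (0.0571 to 0.0775). TARS2 (−0.15 ± 0.056, adjusted p = 0.0413) was lost without DMSO replicate 1 or 2, afatinib replicate 1 or 2 or combination replicate 1 or 3 as well (0.0522 to 0.188). TARS (−0.14 ± 0.057, adjusted p = 0.0476) was lost without 11 of the 16 libraries: DMSO replicates 1 to 3, all afatinib replicates, paclitaxel replicates 1 and 4 and combination replicates 1 and 2 (0.0513 to 0.250). The other calls in the combination, WARS, MARS, IARS, GARS, MARS2, WARS2, LARS2, CARS2 and AARS2, held without any 1 library. With the replicate number as a block NARS was called in addition (−0.12, 0.0468). With no concentration term 5 members were called, and within replicates 3 and 4 alone 3 were.

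**Figure D3:**
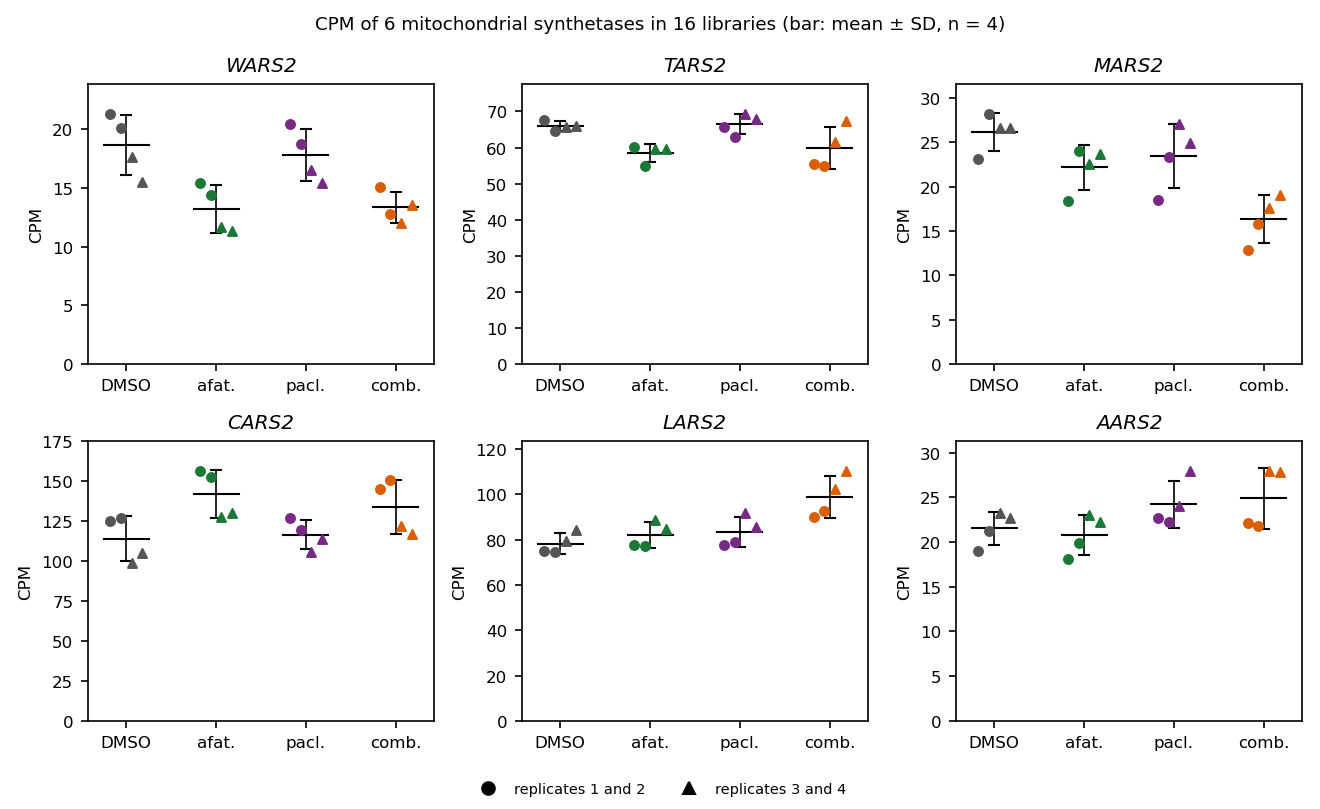
CPM (y axis, linear from 0) of 6 mitochondrial synthetases in the 16 libraries by treatment (x axis), circles for replicates 1 and 2, triangles for replicates 3 and 4, and bars for mean ± SD (n = 4). In the combination MARS2 runs from 12.9 to 19.1 CPM, below DMSO, and LARS2 from 90.0 to 110.5, above DMSO.

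The 3 comparisons share the DMSO libraries. Over the 34 tested members, 15 were called in none of the 3 comparisons with DMSO, 6 in one, 8 in a pair of them and 5 in all 3. The 5 were CARS, MARS, SARS, WARS and YARS, all cytosolic. The 15 were AARS, DARS, FARSA, FARSB, KARS, LARS and QARS among the cytosolic members and FARS2, HARS2, IARS2, NARS2, PARS2, RARS2, SARS2 and YARS2 among the mitochondrial ones. How often any row of the table was called in several comparisons was not counted, so this split does not set the members apart. Of the 8 members of the multisynthetase complex 2 fell with afatinib (MARS and RARS), and EPRS, IARS and MARS fell with paclitaxel and in the combination. Of the 11 tested cytosolic members outside the complex 8, 4 and 7 fell. The medians were −0.12, −0.10 and −0.057 inside the complex and −0.30, −0.12 and −0.16 outside it, and the difference between these groups was not tested. Of the cytosolic class I enzymes 5, 5 and 5 of 8 tested fell, and of class II 5, 1 and 4 of 10, leaving out EPRS, which joins an enzyme of either class in one protein. The difference between the classes was not tested either. Beside these counts, 10.1%, 11.9% and 19.5% of all rows fell in the same order.

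The calls were also counted by promoter motif. Of the 7 cytosolic members with a match 5 fell with afatinib (CARS, GARS, MARS, NARS and TARS), 3 with paclitaxel (CARS, IARS and MARS) and 5 in the combination (CARS, GARS, IARS, MARS and TARS). Of the 9 without one, 4, 3 and 4 fell. The tested cytosolic members DARS, LARS and YARS had no matched promoter and are left out of these counts, although YARS fell in all 3 comparisons. AARS, with a match, was not called against DMSO and stood at −0.0083 ± 0.053, −0.12 ± 0.053 and 0.11 ± 0.053. With the ETS motif, 8 of 9 cytosolic members fell with afatinib against 1 of 7 without it, MARS. With paclitaxel 3 of 9 and 3 of 7 fell, and in the combination 6 of 9 and 3 of 7. The mitochondrial members did not show this difference after afatinib. Of 7 with the ETS motif 1 fell (TARS2) and 1 rose (CARS2), and of 7 without it 1 fell (WARS2). In the combination 2 of these 7 with the motif fell and 2 rose, and 1 of 7 without it fell and 1 rose. The motifs overlap in CARS, GARS, NARS and TARS, and these counts were not tested. Across all rows 10.1%, 11.9% and 19.5% fell with afatinib, paclitaxel and both, and 9.00%, 8.65% and 18.5% rose. Calls were not counted over all genes with or without each motif, so the splits by motif have no baseline.

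**Figure D4:**
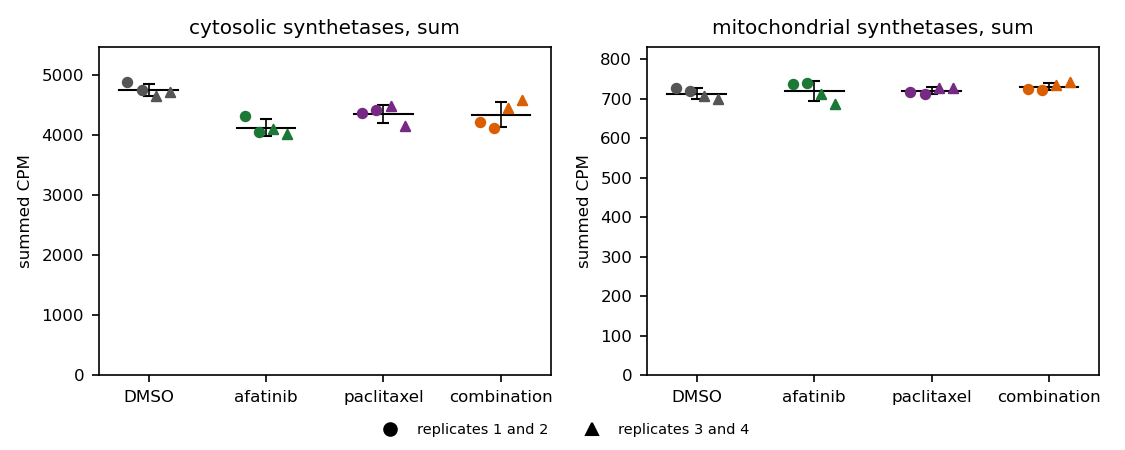
Summed CPM (y axis, linear from 0) of the cytosolic (left) and mitochondrial (right) synthetases in each library by treatment (x axis), circles for replicates 1 and 2, triangles for replicates 3 and 4, bars for mean ± SD (n = 4). The cytosolic sum is highest in the 4 DMSO libraries (4648 to 4881 CPM), and the mitochondrial sums overlap between treatments.

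Summed over the class, the cytosolic members held 4748 ± 98.2 CPM in DMSO (SD, n = 4). They held 4123 ± 139 CPM after afatinib, 4353 ± 145 after paclitaxel and 4343 ± 212 after both. All 12 treated libraries, from 4024 to 4588 CPM, lay below all 4 DMSO libraries, from 4648 to 4881 CPM. In the combination replicates 1 and 2 averaged 4169 CPM and replicates 3 and 4 averaged 4516 CPM, while in the other groups the mean of replicates 3 and 4 was the lower one (4681 against 4815 CPM in DMSO). The mitochondrial sum was 713 ± 13.1, 720.0 ± 25.1, 721 ± 7.72 and 731 ± 9.50 CPM in the same order, with overlapping ranges. These sums are led by the highest members and carry no test.

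The difference of the combination between the sets was therefore examined member by member. The change against DMSO in replicates 3 and 4 minus that in replicates 1 and 2 was above 0 in 29 of 34 members for the combination (18 of 19 cytosolic), 16 of 34 for afatinib and 21 of 34 for paclitaxel. The share of all rows above 0 was not counted, so these counts cannot set the members apart. None passed an adjusted p under 0.05 in edgeR, nor did any row of the table in any of the 3 comparisons (0% of rows called in each). The share of all rows was not counted at an unadjusted p under 0.05 either. At that threshold in edgeR there were 4 members for the combination (EPRS, GARS, WARS and TARS2) and 0 for each single drug. Of these 4, EPRS had the largest difference (0.39 ± 0.11, adjusted p = 0.697): its change in the combination was −0.39 and 0.0018 within the sets.

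Against afatinib alone, the combination showed 5 of 19 cytosolic members higher and 0 lower, and 2 of 15 mitochondrial members higher and 2 lower. Across all rows 13.1% were higher and 14.3% lower, so the mitochondrial counts were near those shares. LARS2 (0.27 ± 0.050, adjusted p = 0.000209) and AARS2 (0.25 ± 0.064, 0.00396) were higher, and MARS2 (−0.45 ± 0.096, 0.00113) was lower, without loss on leaving out any 1 library. PARS2, the mitochondrial proline enzyme, was lower (−0.34 ± 0.11, 0.0229), a call lost without afatinib replicate 2 or combination replicate 1 or 2 (0.0573 to 0.125). The cytosolic RARS (0.16 ± 0.050, 0.0161) was lost without afatinib replicate 4 (0.0708) or combination replicate 4 (0.0560). CARS, GARS, TARS and SARS (0.20, 0.17, 0.15 and 0.16) were each lost without any one of afatinib replicates 2 and 3 and combination replicates 3 and 4, and in part without others (0.0500 to 0.157). No cytosolic member was lower by edgeR (1 at an unadjusted p under 0.05). Within replicates 1 and 2 GARS, TARS and SARS differed from afatinib by 0.044, 0.040 and 0.039.

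Against paclitaxel alone, the combination showed WARS2 (−0.41 ± 0.077, adjusted p = 0.000337), MARS2 (−0.52 ± 0.097, 0.000343) and HARS (−0.18 ± 0.051, 0.0106) lower. LARS2 (0.24 ± 0.050, 0.000808), AARS (0.23 ± 0.053, 0.00248) and CARS2 (0.19 ± 0.051, 0.00715) were higher. TARS (−0.18) and TARS2 (−0.15) were lower too, the first lost without paclitaxel replicate 1 or 3 or combination replicate 1 or 2 (0.0505 to 0.130) and the second without 12 of the 16 libraries (0.0527 to 0.180). In all 5 of the 34 tested members were lower and 3 higher, beside 11.6% and 12.6% of all rows, so these counts do not set the members apart. AARS, the alanine enzyme, given by library because of its value here, read 289, 286, 307 and 322 CPM in DMSO replicates 1 to 4, 295, 277, 320.2 and 305 CPM after afatinib, 262, 277, 299 and 269.7 CPM after paclitaxel and 294, 306, 345 and 354 CPM after both, so its highest values were in the combination.

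Afatinib and paclitaxel differed from each other in 14 members, 11 lower and 3 higher with afatinib, beside 17.1% and 18.9% of all rows. Lower with afatinib were 7 cytosolic members, TARS (−0.33 ± 0.057, adjusted p = 5.82e-05), HARS (−0.30 ± 0.051, 7.08e-05), RARS (−0.25), GARS (−0.25), KARS (−0.20), CARS (−0.23) and SARS (−0.18), and 4 mitochondrial ones, WARS2 (−0.44 ± 0.077, 9.71e-05), AARS2 (−0.22), TARS2 (−0.18) and HARS2 (−0.18). IARS (0.23 ± 0.050, 0.000724), CARS2 (0.28 ± 0.051, 0.000144) and PARS2 (0.38 ± 0.11, 0.00882) were higher with afatinib. TARS, HARS and RARS thus distinguished the drugs in one direction and IARS in the other, each without overlap of the groups. Lost on leaving out 1 library were CARS (afatinib replicate 2 or 3 or paclitaxel replicate 2, 0.0547 to 0.0972), SARS (afatinib replicate 2 or 3 or paclitaxel replicate 3, 0.0542 to 0.0718), HARS2 (afatinib replicate 1, 2 or 4 or paclitaxel replicate 2 or 3, 0.0552 to 0.0982) and PARS2 (afatinib replicate 2 or paclitaxel replicate 1, 0.0549 to 0.0589).

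The interaction, the change in the combination minus the changes of both single drugs, asks whether the drugs added up on the log2 scale. It was above 0 in 17 of 19 cytosolic members, with a median of 0.22 (0.14 and 0.29 within the sets), and its median over all rows was 0.012. The mitochondrial median was 0.0096. WARS (0.41 ± 0.091, adjusted p = 0.0333), MARS (0.41 ± 0.093, 0.0361), CARS (0.42 ± 0.10, 0.0471) and SARS (0.33 ± 0.082, 0.0492) passed, and no member passed below 0 in edgeR or DESeq2 (1 at an unadjusted p under 0.05 in edgeR, MARS2). Within the sets the values were 0.35 and 0.46 for WARS, 0.32 and 0.49 for MARS, 0.28 and 0.55 for CARS and 0.23 and 0.42 for SARS. Across all rows 0.389% passed above 0 and 0.495% below. These 4 members fell with each drug, and the fall in the combination was smaller than the sum of both. The interaction uses the same libraries as the comparisons above. A high DMSO value lowers the change with each drug and raises the interaction. Selection on falls against DMSO would thus favour values above 0, and the size of this tilt was not tested. The next members by p were GARS (0.33 ± 0.087, adjusted p = 0.0659), YARS (0.32 ± 0.089, 0.0915) and IARS (0.25 ± 0.071, 0.0940). MARS2 stood at −0.28 ± 0.13 (adjusted p = 0.394) and LARS2 at 0.18 ± 0.070 (adjusted p = 0.279).

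The 4 interaction calls lay near the threshold. None of the 34 members was called without DMSO replicate 1, afatinib replicate 2, 3 or 4, paclitaxel replicate 1 or 4 or combination replicate 3, and the highest adjusted p on leaving out 1 library was 0.110 for WARS, 0.116 for MARS, 0.142 for CARS and 0.149 for SARS. Nor was any called with no concentration term, with log2 concentration as the term, within either set alone or on the authors' concentration-corrected table, and the sizes of the 4 over those settings were 0.23 to 0.55. With the replicate number as a block 7 were called.

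**Figure D5:**
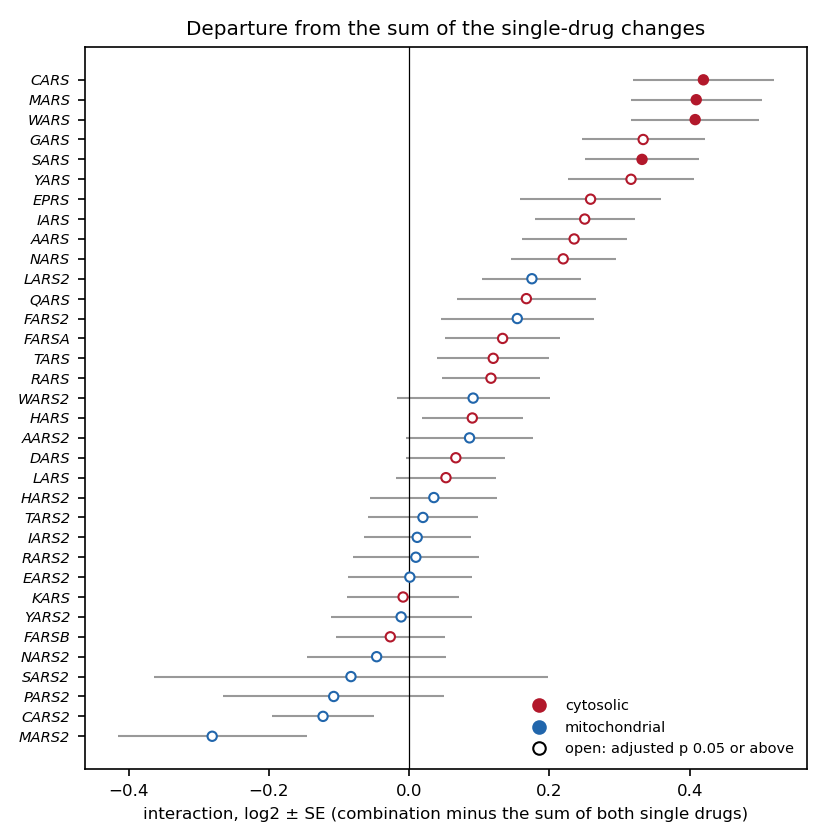
Interaction (x axis, log2, with SE bars) of each tested member (y axis), cytosolic in red and mitochondrial in blue, filled where adjusted p was under 0.05. Of the cytosolic members 17 of 19 lie above 0, and WARS, MARS, CARS and SARS passed an adjusted p under 0.05.

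Between the concentration sets, replicates 3 and 4 against 1 and 2, 13 of 34 members were lower and 10 higher, near the 33.3% and 36.2% of all rows. QARS, the glutamine enzyme of the complex (0.50 ± 0.050), EPRS (0.34 ± 0.051), AARS2 (0.25 ± 0.045), MARS (0.22 ± 0.047) and MARS2 (0.21 ± 0.067) were higher in replicates 3 and 4. FARS2, the mitochondrial phenylalanine enzyme (−0.34 ± 0.055), FARSB (−0.31 ± 0.039), KARS (−0.31 ± 0.040), YARS (−0.29 ± 0.045) and WARS2 (−0.28 ± 0.054) were lower. The difference of QARS between the sets was larger than any of its treatment changes (−0.066 ± 0.070, −0.17 ± 0.070 and −0.073 ± 0.070).

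Partners of the synthetases were counted from lists chosen with earlier results known. Of 10 charging accessory genes, among them the complex scaffolds AIMP1 and AIMP2, none was called with afatinib (1 at an unadjusted p under 0.05) or in the combination (2) by edgeR (lowest adjusted p in the combination 0.0651, DTD2 at −0.20 ± 0.083), and SEPSECS, the enzyme that makes selenocysteinyl-tRNA, rose with paclitaxel (0.28 ± 0.091, adjusted p = 0.0293, named after its value was seen). Of 8 mitochondrial partners 1 fell and 3 rose in the combination, where 19.5% of all rows fell and 18.5% rose, so these counts do not set the list apart. GATB and QRSL1, subunits of the amidotransferase that makes mitochondrial glutaminyl-tRNA, rose by 0.29 ± 0.060 and 0.26 ± 0.064 (adjusted p = 0.000356 and 0.00202). MTFMT, which formylates the initiator methionyl-tRNA that MARS2 makes, rose by 0.24 ± 0.072 (adjusted p = 0.0116). TUFM, the mitochondrial elongation factor, fell (−0.21 ± 0.067, adjusted p = 0.0154).

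Of 5 tested elongation factors, which deliver charged transfer RNA to the ribosome or assist there, 4 fell after afatinib, 0 after paclitaxel (also 0 at an unadjusted p under 0.05 in edgeR) and 3 after both, beside 10.1%, 11.9% and 19.5% of all rows. EEF1D, a subunit of the exchange factor that reloads EEF1A1, stood at −0.52 ± 0.088 with afatinib, EEF1B2 of the same complex at −0.23 ± 0.054 and EIF5A, which assists the ribosome at difficult stretches, at −0.29 ± 0.058 (adjusted p = 0.000156, 0.00319 and 0.000780). EEF1A1 itself stood at −0.11 ± 0.061 (adjusted p = 0.227), and EEF2 was the fourth that fell (−0.24 ± 0.074, adjusted p = 0.0238, named after its value was seen). In the combination EEF1B2, EIF5A and EEF1D changed by −0.24 ± 0.054, −0.23 ± 0.058 and −0.25 ± 0.087.

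Of 23 tested genes of the ATF4 list 10 fell and 1 rose with afatinib, 14 fell and 1 rose with paclitaxel, and 14 fell and 2 rose in the combination. Of all rows 10.1% fell and 9.00% rose with afatinib, 11.9% and 8.65% with paclitaxel, and 19.5% and 18.5% in the combination. PSAT1 of serine synthesis stood at −0.29 ± 0.069, −1.19 ± 0.070 and −1.08 ± 0.070, the mitochondrial folate enzyme MTHFD2 at −0.39 ± 0.071, −0.68 ± 0.071 and −1.01 ± 0.072, and the glutathione-degrading CHAC1 at −0.45 ± 0.11, −1.63 ± 0.12 and −1.06 ± 0.11, all past the threshold. DDIT3, a stress transcription factor, rose in all 3 treatments. The transcript of ATF4, named in addition to the rule, stood at −0.27 ± 0.085 after afatinib (adjusted p = 0.0275), −0.036 ± 0.085 with paclitaxel and −0.21 ± 0.085 in the combination (adjusted p = 0.0589). In the interaction 5 of the 23 passed, all above 0: ASNS, PSAT1, CHAC1, TRIB3 and SLC1A4 (0.91 ± 0.16, 0.40 ± 0.098, 1.02 ± 0.17, 0.40 ± 0.095 and 0.90 ± 0.16), of which ASNS, TRIB3 and SLC1A4 are named after their values were seen.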

How the data were processed

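Total RNA of 16 MDA-MB-231 libraries was sequenced. Per the submitters' processing notes, reads were aligned to hg38 with STAR 2.7.5b and counted with featureCounts of Subread 2.0.1. The deposited table holds raw read counts per gene. A second table deposited by the authors holds log2 values corrected for RNA concentration, per its name and values, and was used only as an alternative. The 171 rows with no symbol held 0.0360 to 0.0462% of counts and stayed out.

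The members and lists were chosen with earlier results of these data known. Rows with enough counts (filterByExpr, minimum count 10, minimum total 15) were scaled by TMM and fitted with edgeR 4.0.16 in R 4.3.3 by the robust quasi-likelihood test, with group and concentration set as terms over all 16 libraries. P-values were adjusted by Benjamini-Hochberg over 17991 rows, and the SE is the log2 fold change over the root of F. The biological coefficient of variation was 7.41%. CPM used TMM library sizes, and RPKM divided by the deposited lengths. DESeq2 1.42.0 and limma 3.58.1 served alternatives. The difference of a change between the concentration sets was fitted with group and set crossed, a choice made after seeing the data. The fit was tested on simulated data.

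Members with per-library values were the 8 cytosolic and 5 mitochondrial ones with the smallest p in any comparison with DMSO among those called, plus those called in the interaction. AARS was given by library in addition, after its values were seen. Of each other list, the 4 genes with the smallest p in the combination were named. A gene of the mitochondrial partner list is not reported here and was left out of its counts.

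Same-numbered libraries deviated together (correlation 0.367 to 0.704 over 24 pairs, median 0.590). Libraries of other numbers in the same set did so too (0.384 to 0.670, median 0.496). The ranges overlap, and the deviations from group means kept the difference between the sets. Whether the numbers pair the libraries is therefore not settled. No 2 libraries of a group agreed within sampling noise.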

Additional observations from a re-analysis of the deposited data

Results flagged for a closer look

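In 3 of 136 groups of 4 values, 1 library stood far from the other 3. Chance alone flags about 1 group in 20. EARS2 stood at 40.7 CPM in paclitaxel replicate 1 and at 35.6 to 36.4 CPM in the others. RARS2 stood at 25.1 CPM in combination replicate 1 and at 21.2 to 21.7 CPM in the others. TARS2 stood at 54.8 CPM in afatinib replicate 2 and at 59.5 to 60.3 CPM in the others.

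The effect of adding paclitaxel differed between cells with and without afatinib in 4 members by edgeR's interaction test: WARS by 0.41, MARS by 0.41, CARS by 0.42 and SARS by 0.33 on the log2 scale (adjusted p = 0.0333, 0.0361, 0.0471 and 0.0492). Each was lost without some single libraries: none was called without DMSO replicate 1, afatinib replicate 2, 3 or 4, paclitaxel replicate 1 or 4, or combination replicate 3.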

How the results depend on the processing

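Counts of called members (against DMSO 13 for afatinib, 7 for paclitaxel and 17 for both, 9 for combination against afatinib, 8 for combination against paclitaxel, 14 for afatinib against paclitaxel and 4 in the interaction) moved by over 1.5 times as follows, in that order. With no concentration term they were 3, 1, 5, 0, 1, 3 and 0. In replicates 3 and 4 only they were 6, 1, 3, 3, 1, 5 and 0. In replicates 1 and 2 only, the counts that moved were 4 with paclitaxel, 2, 5 and 7 for the comparisons between treatments and 0 in the interaction. On the authors' concentration-corrected log2 table, tested with limma, they were 3 with paclitaxel, 7 in the combination, 2, 5 and 9 between treatments and 0 in the interaction. With no low-count filter they were 4, 5 and 9 between treatments. With log2 concentration as a term they were 4 for combination against afatinib and 0 in the interaction, and with only the groups compared 4 with paclitaxel. DESeq2's test called 9 members in the interaction. With the replicate number as a block 7 were called in the interaction, and the other counts were 15, 10, 18, 10, 9 and 16, within 1.5 times. Leaving out each library in turn gave 12 to 14, 4 to 9, 11 to 18, 4 to 10, 6 to 8, 10 to 15 and 0 to 4, and 21 to 25 for the concentration set (23 with all libraries). The combination against afatinib fell to 4 or 5 without afatinib replicate 2, 3 or 4 or combination replicate 3 or 4. EPRS in the combination went to 0.0018 (adjusted p = 0.991) in replicates 3 and 4 only, against −0.19 over all. Of the 72 calls of single members in these comparisons, 59 were lost with no concentration term, 53 in replicates 3 and 4 only, 37 on the authors' table, 30 in replicates 1 and 2 only, 20 with log2 concentration, 16 with no filter and 7 of 68 with only the groups compared. With the block, DESeq2's test, its size factors or all symbols summed, 0 of the 72 were lost. The causes were not tested. The 16 libraries limit what small changes can be shown, and SARS2 is limited by its low counts.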
